A study of Mus musculus with 6 samples.

Results

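The proteasome subunit genes were taken as all gene symbols that begin with Psma, Psmb, Psmc or Psmd followed by a digit, without pseudogenes. Of the 23420 symbols in the count files, 40 matched, and 39 of these encode subunits or subunit-bound chaperones of the proteasome. The remaining one, *Psmc3ip*, encodes a cofactor of meiotic recombination and was kept apart. By annotation, 6 subunit genes lie on chromosome 11 (*Psmb3*, *Psmb6*, *Psmc5*, *Psmd3*, *Psmd11* and *Psmd12*) and 33 lie elsewhere. The RNA came from E14 mouse ESCs (embryonic stem cells of a male line) of 2 genotypes, WT and *Patz1* knockout (KO), with 3 libraries each. PATZ1 is a DNA-binding protein with zinc fingers that the study examined at chromatin boundaries. Both genotypes were grown with LIF, an inhibitor of MEK and an inhibitor of GSK3, with no further treatment. The KO was made with CRISPR-Cas9 from a plasmid, with puromycin selection and picking of single clones, and whether the KO libraries came from a single clone or from several is not given in the sources used here. The study calls the replicates biological. Whether they were separate cultures is not given in the sources used here, and if they were not, the p-values measure only technical spread between these libraries.

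The proteasome degrades proteins that carry ubiquitin chains. Its core particle (20S) is a barrel of alpha and beta subunits, in which the alpha rings form the gate and *Psmb5*, *Psmb6* and *Psmb7* encode the cleaving sites. The regulatory particle (19S) caps the barrel. Its base holds a ring of ATPases, encoded by the *Psmc* genes, that unfold the substrate, and its lid removes ubiquitin. In immune cells and after interferon, the cleaving subunits are replaced by inducible ones encoded by *Psmb8*, *Psmb9* and *Psmb10*. When proteasome activity falls short, the transcription factor NRF1, encoded by *Nfe2l1*, raises many subunit genes together.

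The libraries were of uneven depth. The deposited counts summed to between 37573923 and 47721070 in replicates 1 and 2 and to 11040756 (WT) and 11420268 (KO) in replicate 3. Replicate 3 also held more ribosomal RNA in both genotypes, with 14.4% (WT) and 12.5% (KO) of counts on *Rn45s* against 1.79% to 3.03% in the other libraries. Of the 38 subunit genes tested, 35 had their lowest WT value and 31 their lowest KO value in replicate 3, so that the low values of this replicate were common to both genotypes. Counts divided by size factors are called normalized counts. A floor of 3 counts corresponded to 1.69 to 8.21 normalized counts per library, which covers counting error only. *Patz1* itself, the targeted gene, stood at 1838, 1983 and 1843 normalized counts in the WT libraries (replicates 1 to 3, the order kept below) and at 853, 862 and 862 in the KO libraries. The *Patz1* transcript was thus lower in KO in 3 of 3 pairs of same-numbered libraries (log2 fold change -1.14, SE 0.10, DESeq2 adjusted p = 1.58e-26) and remained detectable at 45.5% of the WT level. *Patz1* lies on chromosome 11, whose genes were lower as a whole in KO, and the 45.5% is not corrected for this. Centred on its chromosome as described below, its log2 fold change was -0.84 (DESeq2 adjusted p = 5.45e-13). The transcript level is no measure of the protein. Of the ESC markers, all 8 were expressed, with a summed level of 147860 to 159079 normalized counts in WT and 170425 to 177623 in KO, and 1 of them, *Dppa5a*, passed the test (log2 fold change 0.38, adjusted p = 0.00223). Of the 4 fibroblast markers, *Col1a1* and *Col1a2* were at or below 15.5 normalized counts in each library, *Vim* was similar in both genotypes, and *Thy1* was low and higher in KO (72.5 against 130 normalized counts, adjusted p = 0.0147). Their summed level was 4104 to 5029 in WT and 4109 to 4789 in KO. The immune marker *Ptprc* had no count in any library, and *Cd74* had 31.7 to 81.2 normalized counts. The part of these cell types in the results below was not tested.

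Summed over the 39 subunit genes, the KO level was 99.8% of the WT level. With genotype alone, the subunit genes that passed the test lay on chromosome 11 and on the distal part of X. *Psmb6*, which encodes the caspase-like cleaving subunit of the core, was lower in KO, at 81.3% of the WT level. *Psmd10*, which encodes a chaperone of base assembly also known as gankyrin, was higher in KO, at 131% of the WT level. These 2 of the 38 subunit genes with an adjusted p passed the threshold of 0.05 (DESeq2, p adjusted over all genes), 1 in each direction. Among all 15309 genes tested, 4.78% were lower and 2.7% were higher in KO. With the replicate block described below, 4 subunit genes were lower, all on chromosome 11. In that model 2 were higher, *Psmd10* and, on chromosome 2, *Psmd5*, beside 7.95% of all genes lower and 6.68% higher. *Psmb8* was too low for an adjusted p. In each of the 6 chromosome 11 subunit genes the KO value was below the WT value in 3 of 3 pairs of libraries. *Psmb10*, *Psmb11* and *Psmc3* on other chromosomes were also lower in 3 of 3 pairs. How many of all genes were lower in 3 of 3 pairs was not counted. Of the 32 tested subunit genes elsewhere, 25 had a log2 fold change above 0 (14 of the 32 without WT replicate 3). Among genes with a mean of at least 50 normalized counts, 58.1% of those outside chromosome 11 were above 0 (55.5% without WT replicate 3). Of the chromosome 11 genes, 90.7% were below 0. In bulk RNA, fewer cells that express a gene and less RNA per cell cannot be told apart.

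**Figure D1:**
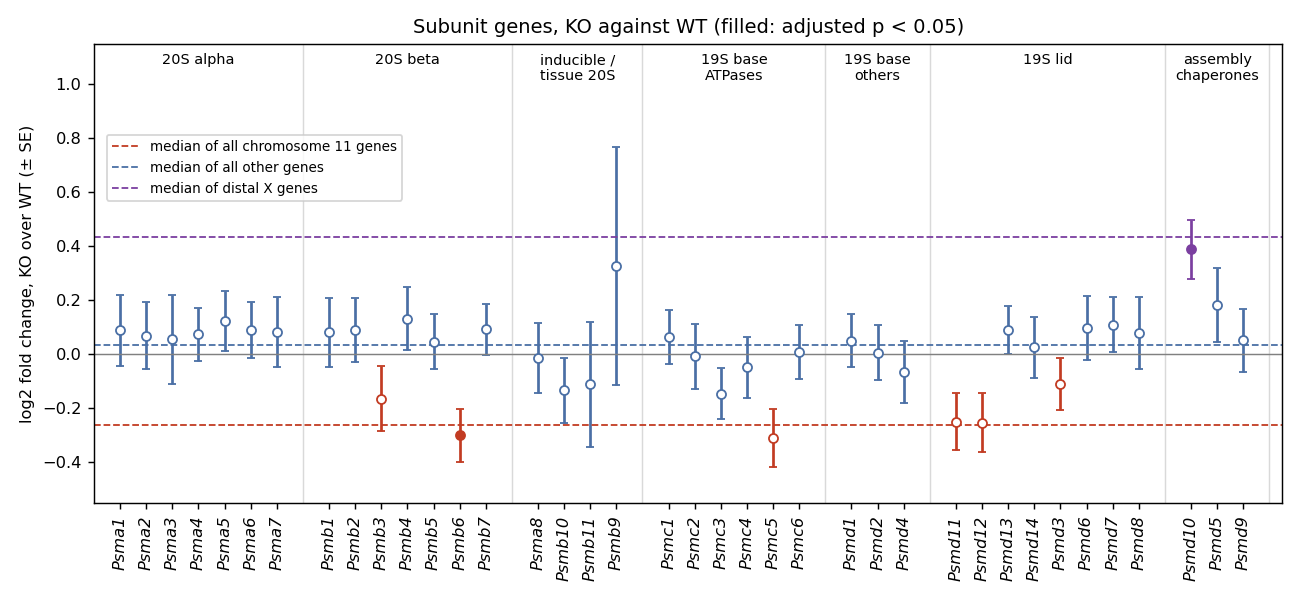
Log2 fold change of KO over WT (y axis, with SE bars, 3 libraries per genotype) for the 38 tested subunit genes, ordered by subcomplex (x axis); chromosome 11 genes are red, *Psmd10* on distal X is purple and the others are blue. The red genes lie between -0.31 and -0.11 around the median of all chromosome 11 genes (-0.26), *Psmd10* lies near the median of distal X genes (0.43), and 2 filled points passed the threshold.

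The promoters of the subunit genes on chromosome 11 and on distal X whose libraries separated by genotype are shown so that their upstream sequences can be set side by side. Each is the 250 bases before the transcription start in RefSeq (GRCm38.p6), read 5′ to 3′ on the strand of the gene, with matches on either strand to 3 short motifs in capitals. The motifs were TGACNNNGC (the core of the antioxidant response element, which NRF1 reads at subunit genes), CCAAT (read by NF-Y) and GGGAGGG (the G-rich core read by MAZ, a relative of PATZ1). The first 4 lie on chromosome 11, at chr11:70525107-70525356 (+) for *Psmb6*, chr11:106255935-106256184 (+) for *Psmc5*, chr11:80428365-80428614 (+) for *Psmd11* and chr11:107479278-107479527 (+) for *Psmd12*, and the last at chrX:140956712-140956961 (-) for *Psmd10*.
Psmb6: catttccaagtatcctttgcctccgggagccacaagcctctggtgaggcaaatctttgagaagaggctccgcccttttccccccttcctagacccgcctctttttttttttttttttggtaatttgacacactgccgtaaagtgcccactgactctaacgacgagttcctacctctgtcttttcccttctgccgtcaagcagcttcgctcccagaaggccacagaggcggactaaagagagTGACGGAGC
Psmc5: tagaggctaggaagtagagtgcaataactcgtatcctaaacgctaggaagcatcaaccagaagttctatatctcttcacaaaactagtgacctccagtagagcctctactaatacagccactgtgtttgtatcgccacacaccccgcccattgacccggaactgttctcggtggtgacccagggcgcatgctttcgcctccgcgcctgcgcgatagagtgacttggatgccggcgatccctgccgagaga
Psmd11: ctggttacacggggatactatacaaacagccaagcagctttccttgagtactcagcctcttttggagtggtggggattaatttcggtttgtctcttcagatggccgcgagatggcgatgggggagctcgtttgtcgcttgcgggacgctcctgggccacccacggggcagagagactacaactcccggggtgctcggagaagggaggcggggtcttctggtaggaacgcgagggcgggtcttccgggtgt
Psmd12: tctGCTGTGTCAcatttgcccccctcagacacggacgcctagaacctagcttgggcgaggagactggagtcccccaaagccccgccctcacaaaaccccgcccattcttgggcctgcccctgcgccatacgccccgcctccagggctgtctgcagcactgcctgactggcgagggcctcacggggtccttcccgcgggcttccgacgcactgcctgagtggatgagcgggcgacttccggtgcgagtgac
Psmd10: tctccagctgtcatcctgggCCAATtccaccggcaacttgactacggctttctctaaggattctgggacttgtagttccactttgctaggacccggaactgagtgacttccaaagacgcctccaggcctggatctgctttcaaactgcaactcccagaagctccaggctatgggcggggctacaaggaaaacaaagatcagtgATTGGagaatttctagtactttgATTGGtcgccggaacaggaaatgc

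TGACNNNGC was found in *Psmb6*, where the match ended at the start site (9 bases before it), and in *Psmd12*, where it lay 247 bases before. *Psmc5* and *Psmd11* held none of the 3 motifs, and *Psmd10* held CCAAT 3 times. A RefSeq window was matched for 32 of the 39 subunit genes (34 windows). *Psma8*, *Psmb1*, *Psmb2*, *Psmb7*, *Psmc3*, *Psmd3* and *Psmd7* were not matched. TGACNNNGC stood in 14.7% of the subunit windows and in 10.2% of all 32817 windows, CCAAT in 38.2% and 33.8%, and GGGAGGG in 2.94% and 19.7%. Among the 5 chromosome 11 subunit windows, 2 held TGACNNNGC, 1 (*Psmb3*) held CCAAT and 0 held GGGAGGG, against 10.9%, 33.7% and 21.6% of all chromosome 11 windows. These shares are descriptions of short letter matches and are no measure of binding.

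Of the beta ring genes on chromosome 11, *Psmb6* (70525367 to 70527858 on the plus strand of chromosome 11 in GRCm38, as for the positions below) had 13975, 11926 and 11823 normalized counts in WT and 9929, 10277 and 10470 in KO. All KO libraries were below all WT libraries, and WT replicate 1 was the highest. The mean fell from 12575 ± 1214 (SD, n = 3) to 10225 ± 274 (log2 fold change -0.30, SE 0.10, adjusted p = 0.0354). *Psmb3*, a structural beta subunit (97703399 to 97713500), had 11732, 10086 and 8861 normalized counts in WT and 9356, 9796 and 8235 in KO. Its genotypes overlapped, and it did not pass the test (log2 fold change -0.16, SE 0.12, adjusted p = 0.570).

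*Psmc5*, an ATPase of the base (106256154 to 106263120), had 8307, 6744 and 6659 normalized counts in WT and 5794, 5830 and 5912 in KO. Its KO libraries lay close together below all WT libraries. The difference was similar in size to that of *Psmb6* and missed the threshold (7237 ± 928 against 5845 ± 60.5, log2 fold change -0.31, SE 0.11, adjusted p = 0.0543).

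The lid has 3 subunit genes on chromosome 11, all scaffold subunits that hold the deubiquitinase in place. *Psmd11* (80428615 to 80473248), which is known for high levels in human pluripotent cells, had 4162, 3656 and 3417 normalized counts in WT and 3280, 3076 and 3113 in KO. *Psmd12* (107479484 to 107504362) had 7917, 6753 and 6161 in WT and 5921, 5959 and 5610 in KO. In both genes all KO libraries were below all WT libraries, and neither passed the test (log2 fold change -0.25, SE 0.10, adjusted p = 0.144 for *Psmd11* and -0.25, SE 0.11, adjusted p = 0.165 for *Psmd12*). *Psmd3* (98682554 to 98695979) had 5734, 5579 and 4964 in WT and 5256, 5053 and 4786 in KO. Its genotypes overlapped, and its difference was the smallest of the 6 (log2 fold change -0.11, SE 0.10, adjusted p = 0.681).

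**Figure D2:**
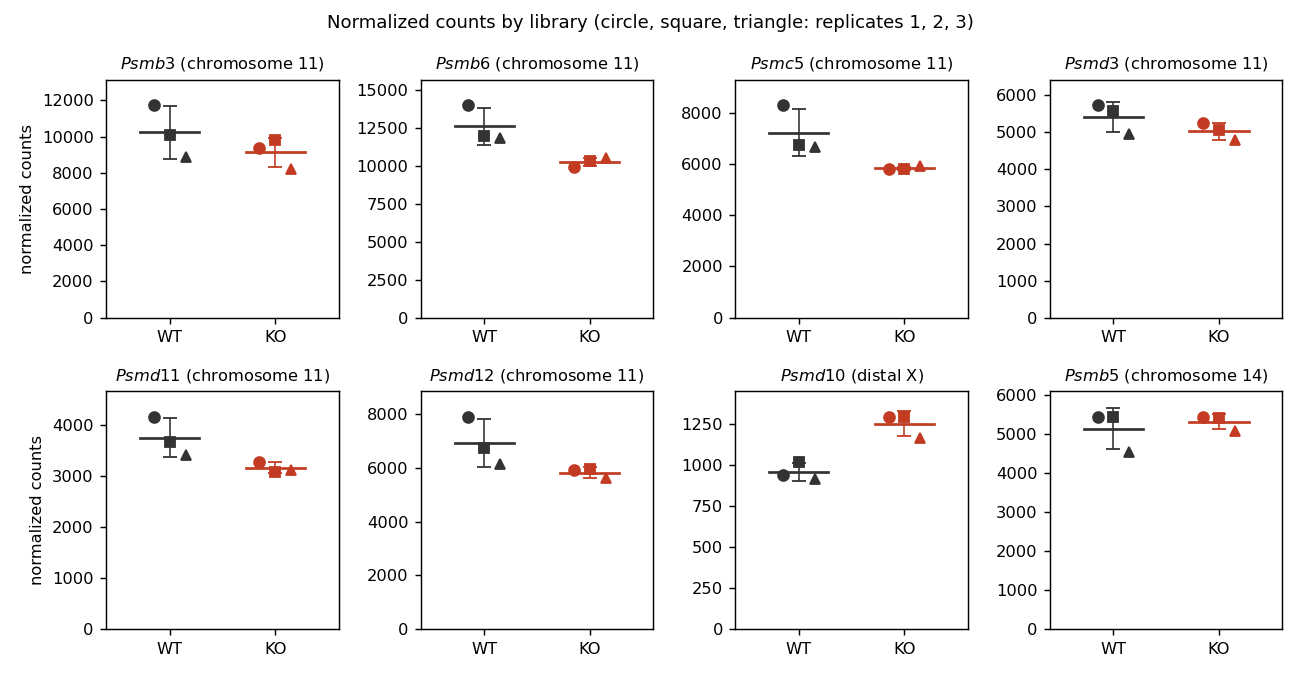
Normalized counts (y axis, from 0) in each WT and KO library (x axis) of the 6 chromosome 11 subunit genes, of *Psmd10* on distal X and of *Psmb5* on chromosome 14; circles, squares and triangles are replicates 1, 2 and 3, and lines and bars are the mean ± SD. KO lies below WT without overlap for *Psmb6*, *Psmc5*, *Psmd11* and *Psmd12*, above WT without overlap for *Psmd10*, and within the WT range for *Psmb5*.

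Thus 4 of the 6 chromosome 11 subunit genes had all KO libraries below all WT libraries. This was so for 13.8% of all genes tested and for 44.4% of chromosome 11 genes. Called lower were 1 of the 6, against 20.2% of the 1262 chromosome 11 genes tested, so the share among the subunits was near that of the chromosome. At an unadjusted p under 0.05 there were 4 of the 6 with DESeq2, 4 with edgeR and 5 with the replicate block described below, against 42.6%, 39.6% and 54.5% of chromosome 11 genes. The size of the difference varied between the replicate pairs. From pairs 1 to 3 the log2 ratio of KO to WT was -0.49, -0.21 and -0.18 for *Psmb6*, -0.52, -0.21 and -0.17 for *Psmc5*, -0.34, -0.25 and -0.13 for *Psmd11* and -0.42, -0.18 and -0.13 for *Psmd12*. The first pair thus gave the largest difference in each of these 4 genes. For *Psmb3* the ratios were -0.33, -0.04 and -0.11, with the first pair again the largest, and for *Psmd3* they were -0.13, -0.14 and -0.05, with the second pair the largest.

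WT and KO libraries of the same number deviated together, and a model with the replicate number as a block called 4 of the 6 lower. These were *Psmb6* (adjusted p = 0.000176), *Psmc5* (0.000389), *Psmd11* (0.00244) and *Psmd12* (0.00258). *Psmb3* (0.0799) and *Psmd3* (0.229) were not called. With the block, 7.95% of all genes and 39% of chromosome 11 genes were lower, so the larger count of subunits stood beside a larger count on the chromosome. Without both replicate 3 libraries, the same 4 genes were called lower, beside 5.52% of all genes and 28.7% of chromosome 11 genes. The call of *Psmb6* was lost with edgeR (adjusted p = 0.103) and when any library but WT replicate 3 was left out (adjusted p up to 0.268), while its log2 fold change stayed between -0.34 and -0.22. Without WT replicate 1, the library with the highest WT values of these genes, the log2 fold change was -0.20 for *Psmc5*, -0.17 for *Psmd11*, -0.15 for *Psmd12*, -0.05 for *Psmb3* and -0.07 for *Psmd3*. Leaving out WT replicate 3 called *Psmc5* (adjusted p = 0.0119), *Psmd11* (0.0289) and *Psmd12* (0.0176) as well as *Psmb6* (0.0103), beside 5.45% of all genes and 27.7% of chromosome 11 genes.

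To set these genes against their chromosome, the log2 fold changes of all genes with a mean of at least 50 normalized counts were used. The 6 subunit genes had a median of -0.25, and the 961 chromosome 11 genes had a median of -0.26 with quartiles of -0.37 and -0.15. Of the chromosome 11 genes, 90.7% were below 0. The subunit genes lay in the middle and upper part of this distribution, since 38.5% of chromosome 11 genes had a lower value than *Psmc5*, 40.1% than *Psmb6*, 51.9% than *Psmd12*, 52.8% than *Psmd11*, 72.9% than *Psmb3* and 80.4% than *Psmd3*. Genes within 1 Mb of each were lower as well. The medians of these neighbours were -0.28 for *Psmb6* (58 genes), -0.29 for *Psmc5* (23 genes), -0.30 for *Psmd11* (13 genes), -0.22 for *Psmd12* (13 genes), -0.32 for *Psmb3* (46 genes) and -0.24 for *Psmd3* (36 genes). The log2 fold changes of *Psmb3* (-0.16), *Psmd3* (-0.11) and *Psmd11* (-0.25) were above the medians of their neighbours, and those of the other 3 genes were below. These differences from the neighbours were not tested.

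The same comparison was made within each library, as the median deviation of the chromosome 11 subunit genes minus that of the subunit genes elsewhere, on the log2 scale. This gap was 0.20, 0.07 and 0.17 in the WT libraries against -0.15, -0.22 and -0.05 in the KO libraries. The genotypes did not overlap. Chromosome 11 was set apart because it was lower as a whole in KO in these same libraries. A gap that follows genotype was therefore to be expected from that choice. Over all genes, the gap between chromosome 11 and the other chromosomes was 0.22, 0.12 and 0.10 in WT and -0.14, -0.15 and -0.15 in KO. Per pair, the change was -0.35, -0.29 and -0.22 for the subunit genes and -0.37, -0.28 and -0.25 for all genes, so that both quantities moved by nearly the same amount in each pair.

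When the levels of chromosome 11 and of distal X were centred in each library, 0 of the 6 passed the test, against 6.06% of chromosome 11 genes in either direction. At an unadjusted p under 0.05 there was 1 of the 6, *Psmd3*, against 15.6% of chromosome 11 genes. The centred log2 fold changes were -0.0032 for *Psmb6* (95% interval -0.17 to 0.17), -0.01 for *Psmc5* (-0.20 to 0.17), 0.05 for *Psmd11* (-0.13 to 0.23) and 0.04 for *Psmd12* (-0.14 to 0.23). The intervals of these 4 genes thus spanned 0 on both sides. *Psmb3* was at 0.13 (-0.08 to 0.34) and *Psmd3* at 0.19 (0.0085 to 0.36, adjusted p = 0.313). *Psmd3*, the gene with the smallest difference before centring, was thus the farthest above the median of its chromosome, and it passed the test with the replicate block and centring together (adjusted p = 0.0129), where 6.74% of chromosome 11 genes were higher. Of all genes, 4.87% were lower and 6% higher in that model. The shift of the whole chromosome, on which the targeted gene *Patz1* also lies, moved with genotype in 3 of 3 pairs. Its part in the values of these genes cannot be told apart from that of *Patz1* itself in this design.

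**Figure D3:**
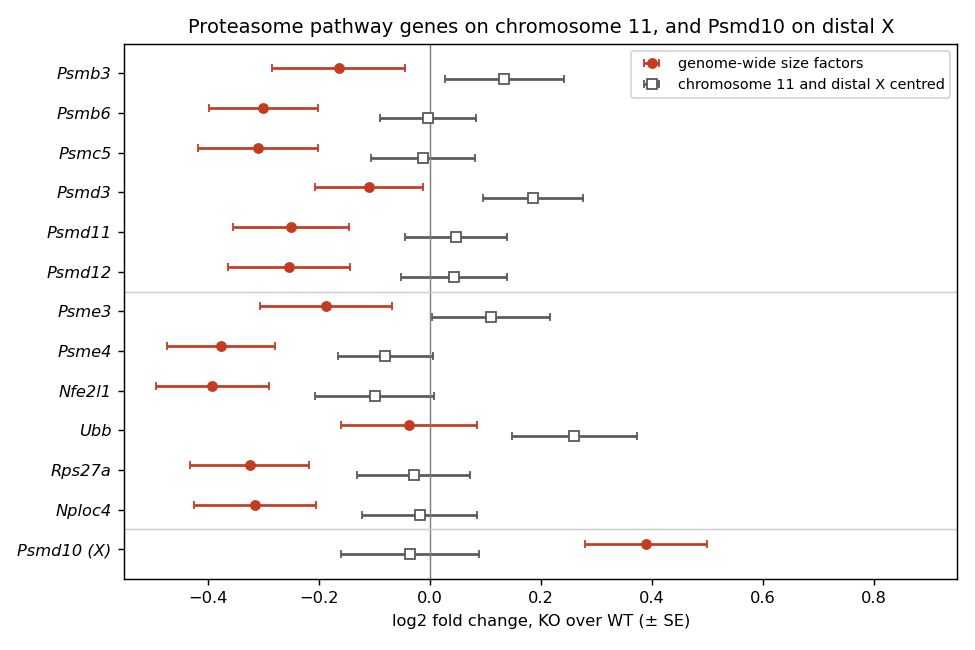
Log2 fold change of KO over WT (x axis, with SE bars) of the chromosome 11 proteasome genes and of *Psmd10* (y axis), with genome-wide size factors (red circles) and after centring chromosome 11 and distal X in each library (open squares). With centring the 6 subunit genes move from between -0.31 and -0.11 to between -0.01 and 0.19, and *Psmd10* moves from 0.39 to -0.04.

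Outside chromosome 11, 30 subunit genes with a mean of at least 50 normalized counts and no place on distal X were tested. None passed with DESeq2 (adjusted p between 0.481 and 0.989), against 6.25% of the 13986 genes tested with a position outside chromosome 11. None had an unadjusted p under 0.05, against 14.9% of these genes. With edgeR 0 had an unadjusted p under 0.05, against 15.8% of genes outside chromosome 11. With edgeR 0 passed after adjustment too, and the share of all genes that did was not counted. With the replicate block, 1 of the 30 passed (*Psmd5*, adjusted p = 0.0434), against 12.3% of genes outside chromosome 11 in that model. *Psma5*, *Psmb4* and *Psmc3* also had an unadjusted p under 0.05 with the block, as had 21.7% of genes outside chromosome 11. The log2 fold changes lay between -0.15 (*Psmc3*) and 0.18 (*Psmd5*), with SEs of 0.09 to 0.23. Of the 30, 7 were below 0, as were 41.9% of all genes outside chromosome 11. Their 95% intervals bounded a change in KO to between -0.57 (*Psmb11*) and 0.45 (*Psmd5*), and to between -0.33 (*Psmc3*) and 0.38 (*Psma3*) for the constitutive core, base and lid genes alone. The median of all 32 tested subunit genes elsewhere was 0.07, beside 0.03 for the 10521 genes outside chromosome 11 with quartiles of -0.09 and 0.14. Without WT replicate 3, the library with the lowest WT value in most subunit genes, the median of the 32 turned to -0.02.

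The medians of the core, base and lid genes outside chromosome 11 lay between -0.01 and 0.09. They lay between -0.11 and 0.0092 without WT replicate 3, and between 0.07 and 0.17 without WT replicate 1. The 7 alpha ring genes had values of 0.06 to 0.12 with a median of 0.08, and all were above 0, as were 58.1% of all genes outside chromosome 11. Without WT replicate 3, 3 of the 7 were above 0 and their median was -0.03, and without KO replicate 2, 5 of the 7 were above 0. The 5 beta ring genes had a median of 0.09 and the 5 lid genes a median of 0.09, which were 0.0013 and 0.0092 without WT replicate 3. The 5 ATPase genes had a median of -0.01 and the 3 other base genes, which bind ubiquitin and scaffold the base, a median of 0.01. Without WT replicate 3 these medians were -0.11 and -0.06, and without WT replicate 1 they were 0.08 and 0.07. *Psmc3*, an ATPase on chromosome 2, had 7388, 6526 and 6429 normalized counts in WT and 6236, 6155 and 6009 in KO. It was the only subunit gene outside chromosome 11 whose KO libraries were all below its WT libraries, as was so for 11.1% of all genes outside chromosome 11. It did not pass the test (adjusted p = 0.481, with the block 0.0913), and its log2 fold change of -0.15 was -0.08 without WT replicate 1. A gene on the opposite strand, *Slc39a13*, shares 8.25% of its exonic bases.

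The 3 chaperones of base assembly included both genes outside chromosome 11 that were called in either model. *Psmd10* had 937, 1017 and 912 normalized counts in WT and 1292, 1292 and 1163 in KO. All KO libraries were above all WT libraries, as was so for 11.8% of all genes tested and for 51.3% of distal X genes. The mean was 955 ± 54.9 in WT and 1249 ± 74.8 in KO (log2 fold change 0.39, SE 0.11, adjusted p = 0.00869, with the block 0.000172). *Psmd10* lies on the distal part of X (140948429 to 140956728, minus strand), where 41.5% of the 236 genes tested were higher in KO. The median log2 fold change of the 178 distal X genes with a mean of at least 50 normalized counts was 0.43. The median of its 4 neighbours within 1 Mb was 0.32. Centred on distal X, *Psmd10* was at -0.04 (95% interval -0.28 to 0.21, adjusted p = 0.962). The bound of distal X was chosen after chromosome medians had been seen, which can raise the shares and the median of that region. Centring sets the median of the region near 0 by construction. Its call was lost without WT replicate 1 (adjusted p = 0.101), KO replicate 1 (0.147) or KO replicate 2 (0.135) and held with edgeR (0.0243).

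*Psmd5*, a chaperone gene on chromosome 2, had 2754, 2727 and 2193 normalized counts in WT and 3178, 3155 and 2376 in KO. It was higher in KO in 3 of 3 pairs, with overlap between the genotypes that came from replicate 3. It was not called with genotype alone (log2 fold change 0.18, SE 0.14, adjusted p = 0.578, and 0.09 without WT replicate 3) and was called with the block (adjusted p = 0.0434), where 6.68% of all genes were higher. *Psmd9*, the other chaperone gene, measured 691 ± 24.8 normalized counts in WT against 717 ± 37.5 in KO (log2 fold change 0.05, adjusted p = 0.907, and 0.0056 without KO replicate 2).

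The cleaving subunits and their inducible counterparts were examined next. *Psmb5*, the chymotrypsin-like subunit, measured 5130 ± 523 normalized counts in WT against 5308 ± 194 in KO (log2 fold change 0.05, SE 0.10, adjusted p = 0.904). *Psmb7*, the trypsin-like subunit, had 7949 ± 630 and 8484 ± 266 (0.09, SE 0.10, adjusted p = 0.742), with 0.03 to 0.14 when 1 library was left out and the lowest value without WT replicate 3. Of the 3 constitutive cleaving subunits only *Psmb6*, the one on chromosome 11, passed the test in WT against KO. The difference between these genes was not itself tested.

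Of the inducible subunits, *Psmb8* and *Psmb9* were low in both genotypes and *Psmb10* was not. *Psmb8* had 2, 2 and 0 raw counts in WT and 0, 6 and 1 in KO, near the floor, and no fold change is given. *Psmb9* measured 25.5 ± 8.46 normalized counts in WT against 31.9 ± 13.01 in KO (log2 fold change 0.33, SE 0.44, adjusted p = 0.827), and its log2 fold change was 0.02 without KO replicate 2. *Psmb10* stood at 1455 ± 175 in WT and 1333 ± 79.7 in KO (log2 fold change -0.13, SE 0.12, adjusted p = 0.691), and its log2 fold change was -0.03 without WT replicate 1. Per kb of coding length, the level of *Psmb7* was 5.39 times that of *Psmb10* in WT and 6.27 times in KO, and the level of *Psmb6* was 454 times that of *Psmb9* in WT and 295 times in KO. The ratio of *Psmb6* to *Psmb9* rests on the few counts of *Psmb9*. *Psma8*, the testis form of the alpha subunit *Psma7*, had 596 ± 21.5 and 597 ± 66.4 normalized counts, and *Psmb11*, the thymus form of *Psmb5*, had 103 ± 11.9 and 96.5 ± 9.57. Per kb of coding length, *Psma7* was 9.57 times as high as *Psma8* in WT and 10.1 times in KO, and *Psmb5* was 57.0 times as high as *Psmb11* in WT and 63.0 times in KO. These ratios depend on the length used. Per kb of merged exons they were 2.72 (*Psmb7* to *Psmb10*), 964 (*Psmb6* to *Psmb9*), 7.71 (*Psma7* to *Psma8*) and 265 (*Psmb5* to *Psmb11*) in WT.

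Levels were compared between subunits as normalized counts per kb. Per kb of merged exons, the 31 constitutive core, base and lid genes spanned an 11.4-fold range in WT, from 6717 for *Psmb6* to 587 for *Psmd11*, both on chromosome 11. Per kb of the longest coding length, the same genes were the ends of a 5.95-fold range, from 17612 to 2958. The levels that follow are WT means per kb of coding length. The mean of each core gene was above that of each base and lid gene, and *Psmb5* and *Psmd14*, the nearest in level across this line, overlapped between libraries. Medians were 8653 for the alpha ring, 9112 for the beta ring, 5140 for the ATPases, 4613 for the other base genes and 4125 for the lid. Within the alpha ring the highest was *Psma2* (14497) and the lowest *Psma1* (7228), and within the beta ring the lowest was *Psmb5* (6478). Within the ATPases *Psmc5* (5942) was highest and *Psmc2* (3454) lowest, with *Psmd4* (5489) and *Psmd1* (3116) the ends of the other base genes and *Psmd14* (6428), the deubiquitinase of the lid, above the other lid genes. In KO, *Psmc5* (4799) was below *Psmc1* (5313), *Psmc4* (5308) and *Psmc6* (5238). The base chaperones were at 1038 (*Psmd9*) to 1692 (*Psmd5*) in WT. Neighbouring genes in these orders often overlapped between libraries, and with merged exons as length the means of core and cap genes overlapped, so the order depends on the length used.

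**Figure D4:**
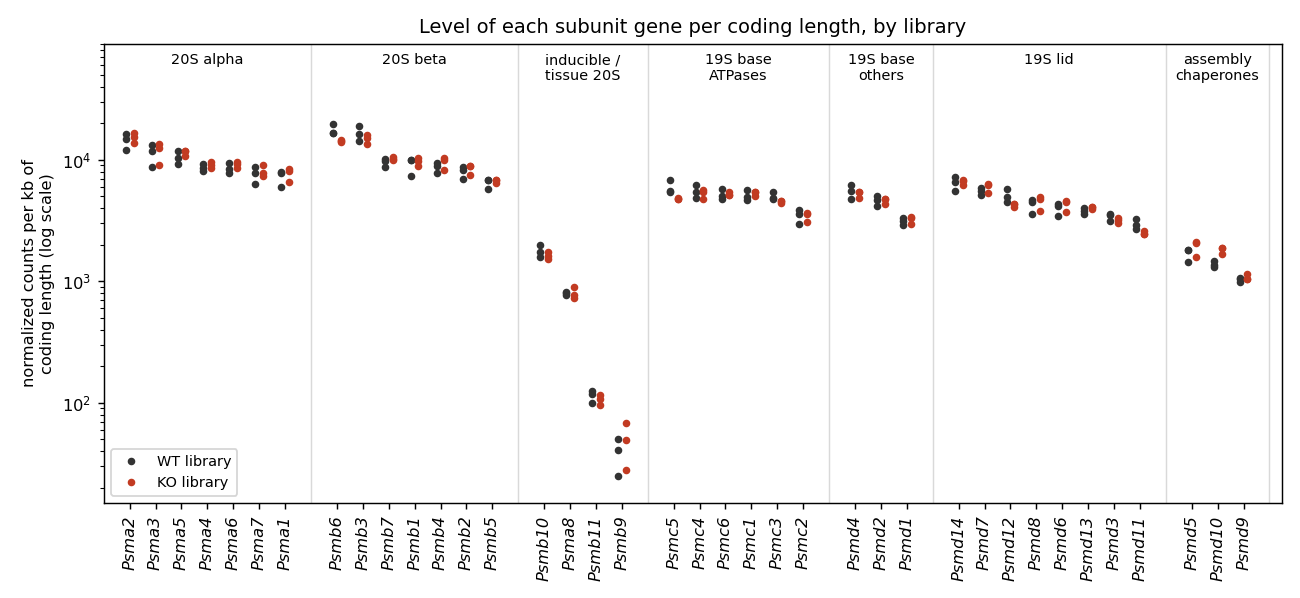
Normalized counts per kb of the longest coding length (y axis, log scale) in each WT library (black) and KO library (red) for the subunit genes, ordered by level within each subcomplex (x axis); *Psmb8*, near the floor, is left out. Core genes stand above base and lid genes by their means, with overlap between single libraries. *Psmb11* and *Psmb9* stand far below, *Psmb10* and *Psma8* lie near the range of the base chaperones, and the genotypes overlap in most genes.

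Summed over all 39 subunit genes, the normalized counts were 240768, 220660 and 194148 in WT and 223585, 228748 and 202229 in KO. The genotypes overlapped, and the KO mean was 99.8% of the WT mean (218526 ± 23383 against 218187 ± 14059). The sum of the 6 chromosome 11 genes was 46152 ± 5119 in WT and 39217 ± 972 in KO, which is 85.0%. The sum of the genes elsewhere was 172373 ± 18593 and 178970 ± 13088, which is 104%. The subunit genes took 0.909%, 0.832% and 0.642% of all counts in the WT libraries against 0.830%, 0.825% and 0.670% in the KO libraries, with the lowest shares in both replicate 3 libraries.

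Of 33 other genes of the pathway, 3 were lower and 0 higher in KO. The 3 were among the 6 on chromosome 11, where 20.2% of all genes tested were lower, beside 4.78% of genes on all chromosomes. *Psme4*, which encodes the activator PA200, had 9886, 8592 and 8453 normalized counts in WT and 6971, 7063 and 6723 in KO (log2 fold change -0.38, SE 0.10, adjusted p = 0.00296). *Nfe2l1*, which encodes NRF1, had 3602, 3524 and 3962 in WT and 2647, 2748 and 3065 in KO (-0.39, SE 0.10, adjusted p = 0.00343). *Rps27a*, a ribosomal protein gene whose product is fused to ubiquitin, had 60931, 49762 and 56936 in WT and 41236, 44161 and 48509 in KO (-0.32, SE 0.11, adjusted p = 0.0371). In each of these 3 called genes, and in 4 of the 6, all KO libraries were below all WT libraries, beside 44.4% of chromosome 11 genes. The call of *Nfe2l1* was lost without KO replicate 1 (adjusted p = 0.105) or KO replicate 2 (0.0697). The call of *Rps27a* was lost with edgeR (adjusted p = 0.0967), with the block (0.0684) and without WT replicate 1 (0.314), WT replicate 3 (0.0628), KO replicate 1 (0.336) or KO replicate 2 (0.205). *Rps27a* has many near-identical pseudogene copies, which makes its counts uncertain.

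The other 3 pathway genes on chromosome 11 were not called with genotype alone over all libraries and genes. *Nploc4*, a cofactor of the segregase, was at -0.31 (SE 0.11, adjusted p = 0.0559). It was called with the block (adjusted p = 7.12e-05), with the count filter (0.0487), without WT replicate 3 (0.00632) and without both replicate 3 libraries (0.00698). *Psme3*, the nuclear activator PA28 gamma, was at -0.19 (SE 0.12, adjusted p = 0.464, with the block 0.0262), and at -0.09 without WT replicate 1. *Ubb*, a polyubiquitin gene, was at -0.04 (SE 0.12, adjusted p = 0.940). After centring, *Psme4* was at -0.08, *Nfe2l1* at -0.10, *Rps27a* at -0.03, *Nploc4* at -0.02, *Psme3* at 0.11 and *Ubb* at 0.26 (adjusted p = 0.213, with the block 0.00431). None of these 6 passed with centring alone, against 6.06% of chromosome 11 genes, and *Ubb* alone had an unadjusted p under 0.05, against 15.6%. With the block and centring together, where *Ubb* was called, 6.74% of chromosome 11 genes were higher.

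Of the 27 pathway genes elsewhere, 0 passed with DESeq2 over all libraries, beside 6.25% of genes outside chromosome 11. With edgeR 0 passed as well, and the share of all genes that passed with edgeR was not counted. DESeq2 called 3 of the 27 without both replicate 3 libraries (*Psmg2*, *Usp14* and *Ubqln2*), beside 6.89% of genes outside chromosome 11. It called 1 without WT replicate 3, beside 6.97%, and 1 without KO replicate 3, beside 5.52%. At an unadjusted p under 0.05 there were 2 with DESeq2, beside 14.9% of genes outside chromosome 11, and 1 with edgeR, beside 15.8%. Their median log2 fold change was 0.01. With the block, 5 of the 27 were called higher, beside the 6.68% of all genes given above. These were *Psmg2*, a chaperone of core assembly, *Usp14*, a deubiquitinase of the base, *Shfm1*, the smallest lid subunit, and the shuttle factors *Rad23b* and *Ubqln2*, with adjusted p between 0.00448 and 0.0366. *Ubqln2* lies on distal X, and with genotype alone its log2 fold change was 0.32, and 0.09 without WT replicate 1. It was 0.64 without WT replicate 3 (DESeq2 adjusted p = 0.00733) and 0.50 without both replicate 3 libraries (adjusted p = 0.0293). In these fits 3.33% and 3.24% of all genes were higher. The activators *Psme1* and *Psme2*, which act with the inducible core, were at -0.08 (adjusted p = 0.868) and -0.23 (adjusted p = 0.495), and without WT replicate 1 at -0.02 and -0.03.

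*Psmc3ip*, the gene that shares the name pattern but not the complex, lies on chromosome 11 as well. It measured 825 ± 64.4 normalized counts in WT against 686 ± 33.1 in KO (log2 fold change -0.26, SE 0.12, adjusted p = 0.215), with all KO libraries below all WT libraries. After centring it was at 0.04. *Psmc3ip* shares 21.2% of its exonic bases with *Mlx* on the opposite strand. Some subunit genes also share exonic bases with another gene in the files on the opposite strand, among them *Psmb7* with *Nek6* (11.8% of its exonic bases), *Psmd13* with *Sirt3* (10.1%) and *Psmb9* with *Tap1* (5.79%). The use of strand in counting is not given in the sources used here, so the values of these genes are uncertain. *Psmb5* shares 12.1% of its exonic bases with *Mir686* on the same strand, so its values are uncertain with either use of strand. Of the 6 chromosome 11 subunit genes, only *Psmd3* overlapped another annotated gene, by 0.34% of its exonic bases.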

How the data were processed

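Total RNA of 3 WT and 3 *Patz1* KO ESC libraries was depleted of ribosomal RNA and sequenced from stranded libraries. The authors mapped reads to mm10 with Bowtie 2 and deposited raw counts per gene symbol, not normalized. The submitters' processing notes list TopHat2 2.1.1, Bowtie2 2.3.1.0 and featureCounts 1.6.2. Annotation, use of strand and handling of duplicate reads are not given in the sources used here. Depth was 11040756 to 47721070 counts per library.

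Samples were grouped by their titles. Genotypes were compared with the two-sided Wald test of DESeq2 (1.42.0, R 4.3.3) on genotype alone over all 23420 symbols, with median-of-ratios size factors, default independent filtering (0.1), Benjamini-Hochberg adjustment and a threshold of 0.05. Intervals are the estimate ± 1.96 SE. Deviations of libraries were taken on log2(normalized count + 1). Positions came from GENCODE M21 (GRCm38, the build of mm10) with older symbols from RefSeq, and placed 23264 symbols, of which 1276 were matched by an older symbol. Distal X is the part from *Pin4* (start 102119447) on, a place chosen after chromosome medians had been seen. Centring scaled the size factors of chromosome 11 and of distal X genes by the median deviation of the genes with a mean of at least 50 normalized counts in that region and library. Alternatives were edgeR (4.0.16, quasi-likelihood), TMM size factors, a filter of 10 counts in 3 libraries, no independent filtering, the replicate block, centring with and without the block, leaving out each library, and leaving out both replicate 3 libraries. Named were all chromosome 11 subunit genes, all members and pathway genes under the threshold, the cleaving, inducible and tissue-specific subunits, the highest and lowest of each subcomplex per length, *Psmd10*, *Psmc3ip*, *Patz1* and the pathway genes on chromosome 11. *Psmc3*, *Psmd5*, *Psmd9*, *Psme1*, *Psme2* and the pathway genes outside chromosome 11 called with the block were named after their values were seen. The members, lists and tests were chosen with earlier results of these data known.

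WT and KO libraries with the same number in their titles deviated together and were taken as pairs. The correlations of their deviations from the genotype means were 0.469, 0.619 and 0.684 (11524 genes), against at most 0.138 between unlike numbers. Each of the 15 pairs of libraries differed by more than sampling noise, with a chi-square of at least 8.80 times its degrees of freedom. Simulated counts with known changes were used to test the code.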

Additional observations from a re-analysis of the deposited data

How the results depend on the processing

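With the replicate block, which uses the pairing of the libraries, 4 members were called lower (4 on chromosome 11) and 2 higher (2 elsewhere), against 1 and 1 with genotype alone. With edgeR 0 were lower (0 on chromosome 11), where 4 chromosome 11 subunit genes had an unadjusted p under 0.05, as had 39.6% of chromosome 11 genes. Without both replicate 3 libraries 4 were lower, 4 of them on chromosome 11, and *Psmb5* turned to -0.0029. With chromosome 11 and distal X centred, 0 were lower (0 on chromosome 11), 0 higher and 0 called elsewhere, the median of the chromosome 11 subunit genes was 0.0459, and the log2 fold changes that turned were *Psmb3* 0.13, *Psmd3* 0.19, *Psmd11* 0.0474, *Psmd12* 0.0443, *Psmc3ip* 0.0405, *Psme3* 0.11, *Ubb* 0.26 and *Psmd10* -0.0354, with *Ubqln2* on distal X at -0.0626 (with the block -0.0333). Centring sets the regional medians near 0 by construction. With centring and block together the first 8 of these were 0.13, 0.19, 0.0458, 0.0448, 0.0444, 0.11, 0.26 and -0.0347 in the same order, the median was 0.0453, and 0 were lower (0 on chromosome 11) and 2 higher (*Psmd3* and *Psmd5*), beside 4.87% and 6% of all genes. The cause of the other changes was not tested. With genotype alone and 1 library left out, 0 to 4 were lower (0 to 4 on chromosome 11), 0 to 1 higher and 0 to 1 called elsewhere, beside 2.24% to 5.45% (lower) and 1.46% to 3.33% (higher) of all genes and 7.8% to 27.7% of chromosome 11 genes (lower), with medians of -0.32 to -0.16 on chromosome 11 and -0.02 to 0.14 elsewhere. Among the genes that changed sign in these fits were *Psma8* (-0.0877 to 0.0538), *Psmb5* (-0.0344 to 0.0902) and *Ubb* (-0.16 to 0.0447). Other subunit genes did so too, among them *Psma1*, *Psma2*, *Psma3*, *Psma7*, *Psmb1*, *Psmd1*, *Psmd8* and *Psmd14*. These were above 0 with all libraries and below 0 without WT replicate 3. The range of levels between constitutive genes was 5.95-fold per coding length and 11.4-fold per merged exons. TMM size factors, the count filter and no independent filtering gave 1 lower and 1 higher. Replicate 3 at 11040756 and 11420268 counts limits the precision of the low genes *Psmb8* and *Psmb9*.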
